A study of Gallus gallus with 12 samples.

Results

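Steadily expressed long non-coding RNAs (lncRNAs) of the hen liver were taken as the lncRNAs with an FPKM above 1 in all 12 livers and with means of the 4 stages within 1 of one another on the log2(FPKM + 1) scale. FPKM is the number of fragments of a transcript scaled by its length and by the fragments of its library. Of 16930 lncRNAs, 163 stood above 1 in every liver, and 80 of these (49.1%) also met the limit on the stage means, which is 0.473% of all lncRNAs. The other 83 differed more between stages. The members were thus chosen by their FPKM values in all 12 livers, so the levels and the closeness of the stage means describe the choice and were not tested.

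The livers came from female Luhua chickens, a Chinese breed, at the juvenile period (JP, day 60), sexual maturity (SM, day 133), peak laying (PL, day 220) and broodiness (BP, day 400), with 3 livers at each stage and 1 hen in each library. Total RNA was depleted of ribosomal RNA and sequenced in strand-specific libraries. The groups differ in age and reproductive state together, and the labels give no treatment, transgene or genetic change. Because the sample is whole liver, fewer cells of a type and less RNA for each cell cannot be told apart. The deposited tables pair the transcripts with no gene names, so the liver identity of the samples was not checked against marker genes here.

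lncRNAs are transcripts without a long conserved reading frame. Some act in the nucleus, where they bring chromatin or transcription factors to genes, and others act in the cytoplasm on the stability or translation of mRNAs. As a class they are expressed at low levels and in few tissues or stages. The liver of the laying hen makes the lipoproteins and other precursors of egg yolk under the control of oestrogen, and many of its transcripts change with the onset of lay. No function is annotated for the steady lncRNAs in the files, and they are named by their transcript identifiers. The paper's time-series analysis sorted lncRNAs into profiles by their course over the stages. Of the 80 steady lncRNAs, 76 are listed in its significantly enriched profiles, beside 75 of the other 83 above 1 in all livers. These profiles list 998 lncRNAs, beside 16930 lncRNAs in all. Being listed thus did not set the steady lncRNAs apart from the other 83. By the rule, steady here means stage means within 1 and does not mean without change.

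Most steady lncRNAs were expressed at a low level. The mean FPKM of a member over the 12 livers ranged from 1.56 to 88.9 with a median of 3.25. It lay under 2 in 9 members, from 2 to 5 in 49, from 5 to 10 in 11, from 10 to 20 in 6 and above 20 in 5. On the log2(FPKM + 1) scale the mean level ran from 1.34 to 6.43 with a median of 2.04. The plot of the 80 levels shows a steep fall over the first members and a long, flat remainder.

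**Figure D1:**
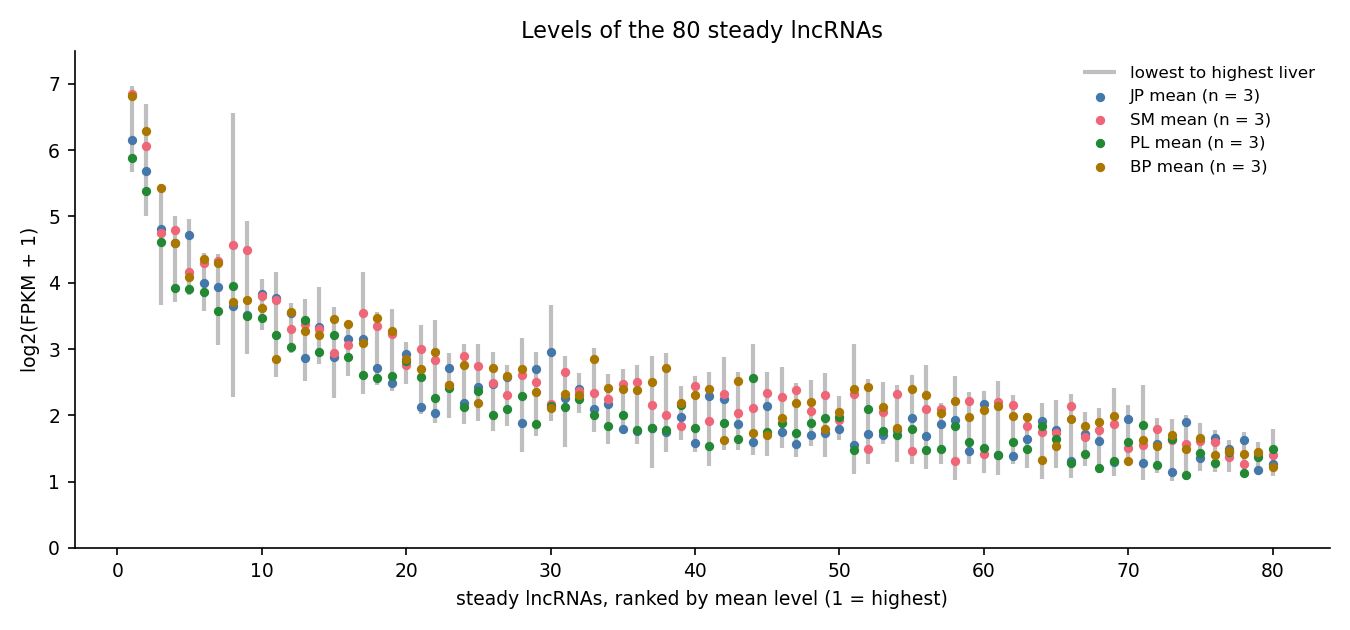
Level of each of the 80 steady lncRNAs, as log2(FPKM + 1) on the vertical axis, ranked by mean level on the horizontal axis; points are means of the 3 livers of a stage and grey lines run from the lowest to the highest of the 12 livers. Mean levels fall from 6.43 to 1.34, and the line of TCONS_00227481 at rank 8 is the longest.

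Against the whole lncRNA table the steady lncRNAs stood near the top, and against the whole mRNA table they stood near the middle. The median member lay at a percentile of 98.6 to 99.2 among all lncRNAs of the same liver. Among the mRNAs of the same liver it lay at a percentile of 54.1 to 58.5, and 53 to 70 of the 80 members exceeded the median mRNA. The leading member lay at a percentile of 96.0 to 97.5 among mRNAs. A floor of 1 in every liver sets these positions in part, against lncRNAs and against mRNAs. The mRNAs here were not held to this floor, and their median FPKM in a liver was 1.41 to 2.98. Among mRNAs that met the same rule, the median of the mean log2(FPKM + 1) was 3.17, against 2.04 for the members.

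The member with the highest level was TCONS_00125494. Its FPKM was 81.3, 63.9 and 67.1 in the JP livers, 113, 124 and 106 in the SM livers, 49.8, 56.2 and 69.0 in the PL livers and 106, 109 and 122 in the BP livers. All SM and BP livers were above all JP and PL livers, and the JP and PL livers overlapped. The second, TCONS_00096842, read 63.5, 43.5 and 46.6 at JP, 55.3, 61.8 and 83.8 at SM, 37.9, 57.3 and 31.2 at PL and 102, 55.5 and 79.6 at BP. Its highest liver was at BP and its lowest at PL, but the livers of any 2 stages overlapped.

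TCONS_00044555 and TCONS_00141000, also among the 5 members of highest level, had different orders of the stages. TCONS_00044555 had FPKM values of 25.5, 22.2 and 22.02 at JP, 21.3, 31.0 and 29.2 at SM, 15.7, 12.1 and 15.1 at PL and 17.6, 23.2 and 30.8 at BP. The 3 PL livers were below all other livers. TCONS_00141000 had 23.6, 30.1 and 23.1 at JP, 16.2, 17.8 and 16.9 at SM, 13.0, 13.9 and 15.1 at PL and 15.6, 15.4 and 16.7 at BP. Here the 3 JP livers were above all others. The 3 PL livers were below all others, by a small gap from 15.1 to the lowest BP liver at 15.4, and SM and BP overlapped.

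Among the remaining members of the first 10, TCONS_00107293 stood between 10.9 and 20.8 FPKM in the 12 livers and TCONS_00005133 between 8.76 and 15.7. Both stayed within a 2-fold range over all livers. TCONS_00145029 ranged from 7.38 to 20.6, with its 2 lowest livers at PL (7.38 and 9.60) and PL liver 3 at 17.8. The last members of the first 10, TCONS_00160485, TCONS_00227481 and TCONS_00002153, differed strongly between livers of one stage and are described with the spread.

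The FPKM summed over the 80 lncRNAs was higher at SM and BP than at JP and PL. It was 551, 517 and 475 in the JP livers, 684, 642 and 649 in the SM livers, 379, 433 and 557 in the PL livers and 652, 602 and 679 in the BP livers. The JP mean of 514 ± 37.9 compares with 658 ± 22.7 for SM, 456 ± 91.5 for PL and 644 ± 39.0 for BP (SD, n = 3 livers). Every SM and BP liver was above every JP and PL liver, and JP and PL overlapped, as did SM and BP.

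Their share of all lncRNA FPKM was instead lower at SM and BP than at JP and PL, while JP stayed above PL and SM above BP in the mean, as in the sums. The steady lncRNAs held 14.1%, 14.0% and 12.9% of it in the JP livers, 9.68%, 8.65% and 8.57% in the SM livers, 12.2%, 12.2% and 14.0% in the PL livers and 7.81%, 8.40% and 7.92% in the BP livers. The JP livers averaged 13.7% ± 0.659, the SM livers 8.97% ± 0.617, the PL livers 12.8% ± 1.04 and the BP livers 8.04% ± 0.313 (SD, n = 3 livers). All JP and PL livers were above all SM and BP livers, so that the gap between these pairs of stages was larger than the spread within them.

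The whole lncRNA table differed more between these pairs of stages than its steady members did. Its summed FPKM was 3106 to 3985 for livers of JP and PL, against 7070 to 8583 for livers of SM and BP, a ratio of means of 2.11. The same ratio was 1.34 for the 80 steady lncRNAs, 1.98 for the other 83 lncRNAs above 1 in all livers and 2.35 for the lncRNAs at or below 1 in at least 1 liver. The rule holds the stage means of the members close and leaves larger ranges to the other 83. The smaller ratio of the members, and with it their lower share at SM and BP, thus follows in part from the choice. The mRNA table moved with the same split, with sums of 408296 to 539529 FPKM for JP and PL livers against 688208 to 772041 for SM and BP livers. The paper reports a lower share of mapped reads in every SM and BP liver than in every JP and PL liver. The part of these splits in the results for the steady lncRNAs was not tested.

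**Figure D2:**
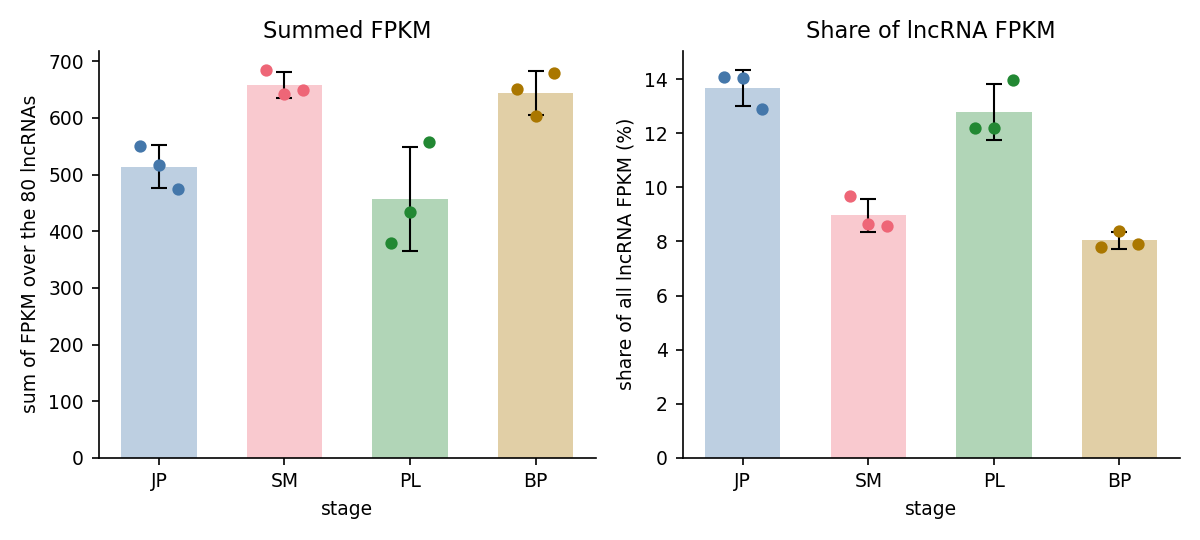
Summed FPKM of the 80 steady lncRNAs (left) and their share of all lncRNA FPKM in percent (right) by stage; points are livers, bars are means and error bars are SD of 3 livers. The sums are higher at SM and BP (658 and 644) than at JP and PL (514 and 456), and the shares are lower (8.97% and 8.04% against 13.7% and 12.8%).

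A small number of members made up much of the sum. TCONS_00125494 alone held 12.4% to 19.3% of the members' FPKM in a liver, and the 10 members of highest level held 46.7% to 59.8%. Over the 12 livers the 80 lncRNAs held 10.9% of lncRNA FPKM on average, and 9.25% without TCONS_00125494. The number of lncRNAs above an FPKM of 1 in a liver was 467 to 570 at JP and PL against 812 to 1036 at SM and BP. The 80 steady lncRNAs were 14.0% to 17.1% of these at JP and PL and 7.72% to 9.85% at SM and BP.

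The limit allowed stage means up to 1 apart, which is 2-fold in FPKM + 1, and most members used more than a small part of it. The range of the 4 stage means, highest minus lowest on the log2(FPKM + 1) scale, was 0.12 to 0.996 with a median of 0.69. It was at most 0.25 in 4 members, from 0.25 to 0.5 in 14, from 0.5 to 0.75 in 27 and above 0.75 in 35. Among mRNAs, 6060 of the 8893 above 1 in all livers (68.1%) met the same rule, and their median range was 0.60.

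The 3 members with the closest stage means were TCONS_00217377, TCONS_00231294 and TCONS_00153345, with ranges of 0.12, 0.16 and 0.16. TCONS_00231294 had FPKM values of 7.19, 5.96 and 6.57 at JP, 4.76, 5.92 and 6.83 at SM, 6.54, 5.79 and 5.89 at PL and 6.79, 4.52 and 7.60 at BP. The stages overlapped throughout, and the highest and the lowest liver were both at BP. TCONS_00217377 lay between 1.205 and 2.08 FPKM in the 12 livers and TCONS_00153345 between 3.10 and 5.20. In these 3 members the SD within stages (0.16, 0.21 and 0.20) was larger than the SD of the 4 stage means (0.05, 0.06 and 0.07). They were picked for close stage means, so the small SD of these means follows from the choice.

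At the other end, TCONS_00002153, TCONS_00125494 and TCONS_00218400 had ranges of 0.996, 0.97 and 0.96. TCONS_00218400 had FPKM values of 2.62, 2.13 and 2.34 at JP, 2.39, 3.08 and 3.63 at SM, 1.73, 2.37 and 3.33 at PL and 6.67, 5.10 and 4.95 at BP. Its BP livers were all above the livers of the other stages, which overlapped one another.

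Several lncRNAs lay close to the thresholds on either side. Just outside the limit on stage means stood TCONS_00223262 and TCONS_00167197, with ranges of 1.003 and 1.01. The latter was expressed at 10.7 to 27.6 FPKM. Just inside the floor stood TCONS_00222921, at 1.004 in JP liver 1, and TCONS_00231784, at 1.03 in SM liver 2. Just below the floor stood TCONS_00107400, at 0.959 in PL liver 1 with a range of 0.80, and TCONS_00118474, at 0.952 in BP liver 2 with a range of 0.16. Membership near the thresholds therefore turns on small differences.

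The SD of livers within a stage and the SD of the 4 stage means were of similar size, but they are unlike measures. Each stage mean averages 3 livers, so spread between livers alone would give the stage means a smaller SD than single livers. The pooled SD within stages was 0.10 to 1.57 on the log2(FPKM + 1) scale with a median of 0.26, and the SD of the 4 stage means had a median of 0.32. In 33 of the 80 members (41.2%) the SD within stages was the larger. The same held for 5 of the other 83 lncRNAs and for 2409 of the mRNAs under the rule (39.8%), a comparison in which the limit on stage means keeps the SD between stages small for members and mRNAs but not for the other 83. The median SD within stages was 0.30 for the other 83 lncRNAs and 0.22 for the mRNAs under the rule. Read by level, it was 0.24, 0.29 and 0.29 for members with a mean of 1 to 2 (36 members), 2 to 3 (26) and above 3 (18). In the same classes it was 0.30, 0.28 and 0.31 for the other lncRNAs (8, 39 and 36 of the 83). For mRNAs it was 0.22, 0.23 and 0.22. Above a mean of 2, the members and the other 83 thus had similar medians.

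**Figure D3:**
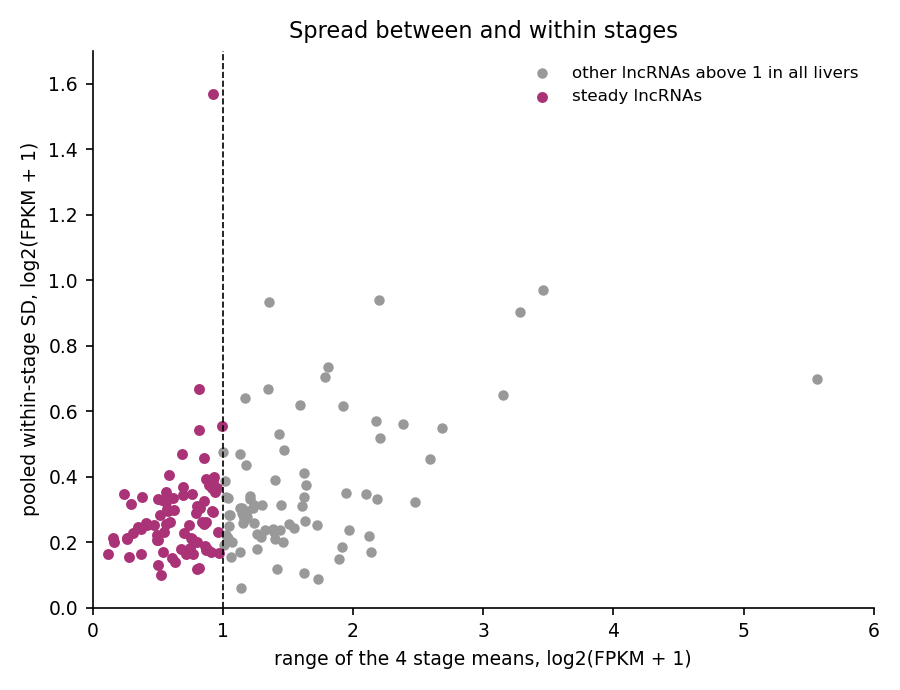
Range of the 4 stage means (horizontal) against the pooled within-stage SD (vertical), both on the log2(FPKM + 1) scale, for the 80 steady lncRNAs and the other 83 lncRNAs above 1 in all livers; the dashed line is the limit of 1. The steady lncRNAs have a median SD of 0.26 and the others, at a higher median level (2.80 against 2.04), of 0.30. TCONS_00227481 stands apart at 1.57.

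In FPKM, the highest liver exceeded the lowest liver of a member by 1.67-fold to 24.5-fold with a median of 2.87-fold. The ratio was over 2 in 70 members, over 3 in 33, over 4 in 12 and over 5 in 2. The livers of at least 1 stage were over 2-fold apart in 38 members and over 3-fold apart in 9. By stage, livers over 2-fold apart were seen in 11 members for JP, 13 for SM, 18 for PL and 11 for BP. The median SD of a member within a stage was 0.27 for PL and lower for JP (0.19), SM (0.20) and BP (0.21). This was not particular to the members. For mRNAs under the same rule it was 0.27 for PL, against 0.18 for JP, 0.14 for SM and 0.18 for BP. For the other 83 lncRNAs it was 0.31 for PL, against 0.20, 0.23 and 0.24.

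The smallest spread within stages was found for TCONS_00069346, TCONS_00229103 and TCONS_00141000, with SDs of 0.10, 0.12 and 0.12. TCONS_00069346 had FPKM values of 10.99, 10.6 and 10.5 at JP, 9.83, 8.03 and 8.72 at SM, 7.59, 6.71 and 7.17 at PL and 10.5, 9.87 and 11.9 at BP. The PL livers were the lowest and the SM livers came next, without overlap with JP or BP, while JP and BP overlapped. TCONS_00229103 had 2.38, 3.03 and 2.82 at JP, 2.04, 2.12 and 1.74 at SM, 1.28, 1.12 and 1.04 at PL and 1.57, 1.74 and 2.14 at BP. The JP livers were the highest and the PL livers the lowest, with SM and BP overlapping between them.

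The largest spread within stages was found for TCONS_00227481, TCONS_00160485 and TCONS_00002153, with SDs of 1.57, 0.67 and 0.56. TCONS_00227481 had FPKM values of 19.7, 5.17 and 14.2 at JP, 88.4, 12.02 and 10.4 at SM, 3.82, 7.00 and 93.5 at PL and 16.9, 19.8 and 4.97 at BP. SM liver 1 and PL liver 3 stood far above the other 10, of which none exceeded 19.8. These 2 livers belong to different stages, and the stage means ranged over 0.93.

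TCONS_00160485 had 38.7, 41.6 and 12.2 at JP, 37.3, 11.6 and 38.7 at SM, 23.0, 22.7 and 24.6 at PL and 40.7, 41.3 and 43.9 at BP. JP liver 3 and SM liver 2 were the lowest, and the PL livers lay between 22.7 and 24.6. All other livers lay between 37.3 and 43.9, with no value between these levels. The lncRNA with the next identifier, TCONS_00160486, stood above 1 in all livers but was not a member. Its FPKM was highest in JP liver 3 (17.6) and SM liver 2 (28.4) and at most 7.69 in the other livers. It was picked out for this contrast once the data were known. Whether the opposite values of these 2 transcripts are linked was not tested. TCONS_00002153 had 13.9, 8.67 and 9.30 at JP, 27.9, 29.5 and 12.1 at SM, 6.61, 11.2 and 14.6 at PL and 11.7, 19.9 and 7.95 at BP. SM livers 1 and 2 were the highest, and SM liver 3 lay among the livers of the other stages. Livers of 1 stage were over 3-fold apart in TCONS_00227481 and TCONS_00160485 but not in TCONS_00002153. The other members counted with livers of 1 stage over 3-fold apart were TCONS_00219552, TCONS_00220326, TCONS_00055211, TCONS_00018499, TCONS_00222837, TCONS_00005723 and TCONS_00037111.

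**Figure D4:**
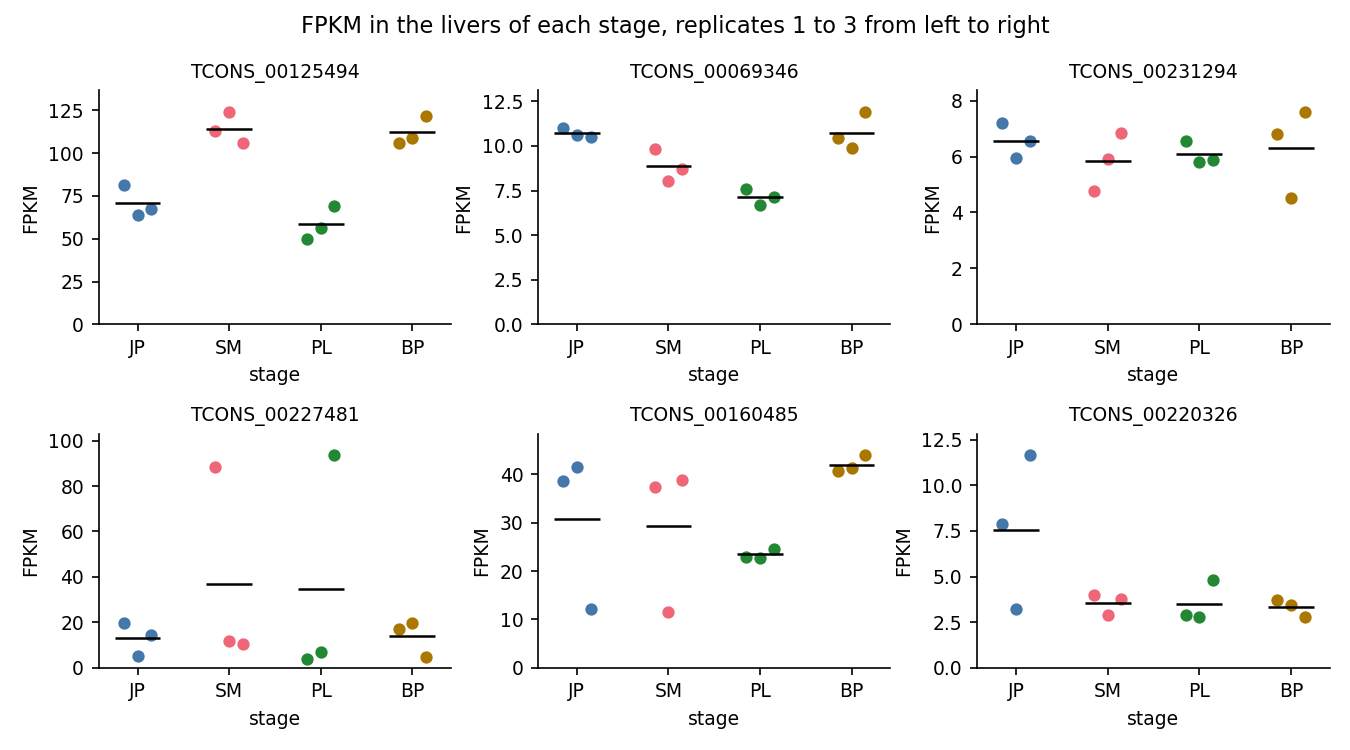
FPKM of 6 steady lncRNAs in the livers of each stage, with replicates 1 to 3 from left to right and a line at the stage mean; each panel has its own vertical axis from 0. The upper panels show members with close livers within a stage and the lower panels members with livers far apart, such as TCONS_00227481 with 88.4 and 93.5 in 2 livers and at most 19.8 in the others.

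At the other extreme, 10 members stayed within a 2-fold range over all 12 livers. TCONS_00122317 ranged from 5.03 to 9.71 FPKM. TCONS_00014420, of lowest level among them, ranged from 1.14 to 2.01. Both were named after their values were seen. In 42 of the 80 members the livers of every stage were within a 2-fold range.

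The order of the members by level was largely kept from liver to liver. Across the 80 members, Spearman's rho between 2 livers was 0.84 ± 0.05 (SD over 12 pairs of livers) within a stage and 0.74 ± 0.04 (54 pairs) between stages. The rule holds the stage means of a member within 1, while mean levels of the members ran from 1.34 to 6.43. The kept order thus follows in part from the choice. Genes are not independent replicates and pairs share livers, so no p is given. One pair of members, TCONS_00023496 and TCONS_00023497, had consecutive transcript identifiers, and 17 members had a consecutive identifier anywhere among the lncRNAs. Whether the transcripts of such a pair belong to one locus is not known here.

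Although their stage means were close, the members leaned towards SM and BP. The highest stage mean was at BP in 34 members, SM in 25, JP in 17 and PL in 4, whereas the lowest was at PL in 38, JP in 26, BP in 9 and SM in 7. In 39 members both the SM and BP means exceeded both the JP and PL means, and in 2 both were lower. Among the mRNAs under the same rule, SM held the highest stage mean in 39.5%, JP in 1818 of the 6060, BP in 17.9% and PL in 12.6%. SM and BP are also the stages with the higher summed FPKM and the lower share of mapped reads. The part of these in the lean was not tested.

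The median member of each liver followed this lean, but many members did not. The median member differed from its own mean over 12 livers by -0.07, -0.04 and -0.18 in the JP livers, 0.06, 0.14 and 0.12 in the SM livers, -0.32, -0.29 and -0.06 in the PL livers and 0.17, 0.10 and 0.23 in the BP livers. PL liver 1 was the lowest liver in 23 members and had 11 above their own mean, whereas BP liver 3 had 61 above it. For mRNAs under the rule the median difference from the own mean was between -0.35 and 0.18, lowest again in PL liver 1. For the other 83 lncRNAs it was between -0.85 and -0.35 for JP and PL livers and between 0.38 and 0.56 for SM and BP livers. The rule leaves the larger stage ranges to these 83, so their wider differences follow in part from the choice.

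**Figure D5:**
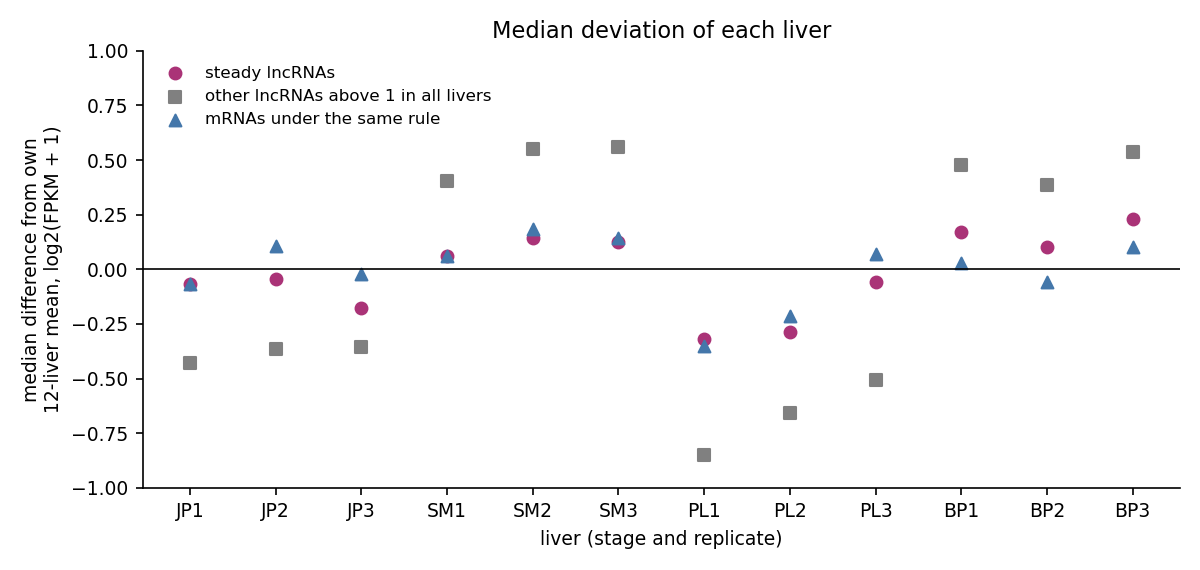
Median difference of each liver from a transcript's own mean over the 12 livers, on the log2(FPKM + 1) scale, for the 80 steady lncRNAs, the other 83 lncRNAs above 1 in all livers and the 6060 mRNAs under the same rule. The steady lncRNAs lie between -0.32 and 0.23, and the other 83 between -0.85 and 0.56.

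After the median difference of the mRNAs was subtracted from each liver, BP held the highest stage mean in 34 members, SM in 19, JP in 14 and PL in 13. The stages kept their order by this count, with fewer members at SM and JP and more at PL than in the deposited values. The number of members with a stage range over 1 was then 4, and the median SD within stages 0.25. With the members' own median difference subtracted instead, JP held the highest stage mean in 24 members, SM in 23, PL in 17 and BP in 16. This subtraction gives the members the same median difference in every liver. It thus takes out their shared lean by construction and is no check of it. The order of the stages thus differed with the value subtracted.

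Differential expression was computed over all tested lncRNAs with limma in the 6 comparisons between stages, and a lncRNA was called where its fold change reached 1.5 and its adjusted p was below 0.05. Since the rule used the same stage means, the counts of members describe the list and are no test of it. JP versus SM called 10 members, where 9.71% of the 6254 lncRNAs tested were called. Of these, 9 were higher at SM (9.18% of lncRNAs tested) and 1 was lower (0.528%). JP versus PL called 1 member (1.25% of lncRNAs tested), with 0 higher at PL (0.72%) and 1 lower (0.528%). JP versus BP called 7 (7.15%), with 6 higher at BP (6.59%) and 1 lower (0.56%).

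SM versus PL called 10 members (11.4% of lncRNAs tested), with 0 higher at PL (1.54%) and 10 lower (9.87%). PL versus BP called 9 (7.08%), with 9 higher at BP (6.32%) and 0 lower (0.768%). SM versus BP called 0 members with limma (1.34% of lncRNAs tested), 0 higher at BP (0.528%) and 0 lower (0.815%), and 9 members had an unadjusted p under 0.05, beside 14.8% of lncRNAs tested. These shares of lncRNAs tested stand beside the members' counts as background, and nothing is read from the comparison.

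Of the other 83 lncRNAs, 47 were called in JP versus SM, 13 in JP versus PL, 43 in JP versus BP, 59 in SM versus PL, 0 in SM versus BP and 49 in PL versus BP. The median log2 fold change of the members was 0.24 in JP versus SM, -0.10 in JP versus PL, 0.26 in JP versus BP, -0.36 in SM versus PL, -0.01 in SM versus BP and 0.39 in PL versus BP. For the other 83 lncRNAs it was 0.95, -0.28, 0.84, -1.15, -0.06 and 1.12 in the same order of comparisons. The limit on stage means sets the smaller values of the members in part. Over all tested lncRNAs it lay between -0.14 (SM versus PL) and 0.13 (JP versus SM). Most of these lie at lower levels, where the log2(FPKM + 1) scale understates fold changes. The comparisons share livers, so these values are not independent of one another. Fold changes are the second stage minus the first.

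Livers of the stages did not overlap in 33 members in JP versus SM (38.0% of tested lncRNAs), 18 in JP versus PL (21.2%), 37 in JP versus BP (34.6%), 29 in SM versus PL (38.3%), 17 in SM versus BP (17.5%) and 37 in PL versus BP (31.8%). Over the 6 comparisons, 57 members were called in none, 15 in 1, 4 in 2, 2 in 3 and 2 in 4. Thus 23 members (28.7%) were called at least once, beside 17.1% of all tested lncRNAs. These 2 shares are not comparable, because most tested lncRNAs lie at lower levels, where the log2(FPKM + 1) scale understates fold changes. Only 1067 of the 6254 passed an FPKM of 1 in 3 or more livers. When these alone were tested, JP versus SM called 15 members beside 45.2% of lncRNAs tested, and SM versus PL 16 beside 48.9%. The members' share was then the lower in every comparison, which the limit on stage means sets in part. A member can differ by at most 1 between stage means, so each call is of a change under 2-fold in FPKM + 1.

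The 2 members called in 4 comparisons were TCONS_00125494 and TCONS_00020795, which were both high at SM and BP. For TCONS_00125494, limma gave a log2 fold change of -0.97 (SE 0.16, adjusted p = 0.00255) in SM versus PL and 0.94 (SE 0.16, adjusted p = 0.00482) in PL versus BP. With livers scaled by the median ratio over lncRNAs, these became -0.07 (limma adjusted p = 0.789) and 0.08 (adjusted p = 0.802), and neither was called. With scaling over mRNAs they were -0.51 (limma adjusted p = 0.0552), which was not called, and 0.60 (adjusted p = 0.0351), which was. TCONS_00020795 had FPKM values of 1.12, 1.78 and 1.57 at JP, 3.22, 3.10 and 4.02 at SM, 1.72, 1.52 and 1.07 at PL and 2.63, 3.28 and 2.67 at BP. The 6 SM and BP livers were all above the 6 JP and PL livers. This lncRNA was named after its values were seen. None of its 4 calls held under either scaling.

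In the other comparisons, the members with the largest called changes had small absolute levels. TCONS_00223560 had 1.73, 1.89 and 2.39 FPKM at JP and 4.26, 4.07 and 5.02 at SM, a log2 fold change of 0.86 (SE 0.20, limma adjusted p = 0.0151). TCONS_00097966 fell by 0.75 (SE 0.21, limma adjusted p = 0.0284) between the same stages, from 3.71, 2.74 and 4.13 to 1.78, 1.43 and 1.80 FPKM. Both had stages without overlap. TCONS_00229103, described with the spread, changed by -0.80 (SE 0.16, limma adjusted p = 0.0292) in JP versus PL. TCONS_00218400 rose by 0.96 (SE 0.22, limma adjusted p = 0.0193) in JP versus BP. TCONS_00130728 fell by 0.63 (SE 0.17, limma adjusted p = 0.0324) in JP versus BP, from 2.55, 3.46 and 2.65 to 1.47, 1.38 and 1.64 FPKM. In each of these the livers of the 2 stages did not overlap. TCONS_00097966 and TCONS_00130728 were called under both scalings. TCONS_00223560 and TCONS_00218400 were not called with scaling over lncRNAs (limma adjusted p = 0.238 and 0.165), and TCONS_00229103 was not called with scaling over mRNAs (limma adjusted p = 0.0501).

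Calls depended on scaling and on single livers. With livers scaled by the median ratio over lncRNAs, calls were 0 higher and 7 lower in JP versus SM (4.02% of lncRNAs tested were called), 1 and 1 in JP versus PL (3.69%), 0 and 7 in JP versus BP (3.56%), 10 and 0 in SM versus PL (5.92%) and 0 and 6 in PL versus BP (3.84%), which turns the direction of the majority in all but JP versus PL. With livers scaled over mRNAs, an alternative chosen after seeing the data, calls were 3 higher and 3 lower in JP versus SM (6.91%), 2 and 4 in JP versus BP (6.24%), 2 and 2 in PL versus BP (5.30%), 0 in JP versus PL (1.84%) and 0 in SM versus PL (7.33%). The direction of the calls between SM or BP and JP or PL thus differed with the scaling. The factors over lncRNAs came from the 163 lncRNAs above 1 in every liver, which are the 80 members and the other 83. The rule limits the stage differences of the members but not of these 83. A turn of the members against this mix is thus in part set by the choice and is no test of their direction. The log2 factors ran from -0.50 (PL liver 1) to 0.26 (SM liver 2) over mRNAs. Over lncRNAs they ran from -0.72 (PL liver 1) to 0.46 (BP liver 3). Values were divided by the factors, so a negative log2 factor raised a liver and a positive one lowered it.

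Leaving out a liver changed several counts by over 1.5 times. JP versus SM called 1 member without JP liver 1, 3 without JP liver 3 and 3 without SM liver 2. JP versus PL called 0 without any one of the 3 JP livers or PL liver 1 or 2. JP versus BP called 2, 3 and 0 without JP liver 1, 2 and 3, 4 without SM liver 1, 4 without PL liver 1 or 2 and 1 without BP liver 1 or 3. SM versus PL called 5 and 6 without JP liver 1 and 3, 3 and 5 without SM liver 2 and 3, and 2 without PL liver 1 or 2. PL versus BP called 5, 4 and 5 without JP liver 1, 2 and 3, 3 and 1 without PL liver 1 and 2, and 5, 5 and 2 without BP liver 1, 2 and 3. SM versus BP called 1 without JP liver 2, PL liver 3 or BP liver 1.

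Beside these counts stands the share of all tested lncRNAs called. Without each liver in turn it was 7.36% to 10.5% in JP versus SM, 0.695% to 2.36% in JP versus PL and 4.65% to 7.66% in JP versus BP. In SM versus PL it was 8.06% to 13.2%, in SM versus BP 0.917% to 1.62% and in PL versus BP 3.99% to 8.20%. Without JP liver 1, for example, 7.54% of lncRNAs tested were called in JP versus SM beside the 1 member, and without SM liver 2 it was 8.87% beside 3 members.

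Membership itself also depended on single livers. Leaving out a liver cannot put a member below the floor, so a member could fail only through the limit on stage means. With the rule applied to the other 11 livers, the number of steady lncRNAs was 74 to 92, of which 69 to 79 were among the 80. In all, 57 members met the rule whichever liver was left out, 23 failed it in at least 1 case, and 41 other lncRNAs entered in at least 1 case. TCONS_00227481, the member with the largest spread, met it in 4 of the 12 cases.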

How the data were processed

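The authors sequenced ribosomal RNA-depleted, strand-specific libraries of 12 livers, mapped reads with HISAT2 2.1.0, assembled and quantified transcripts with StringTie 1.3.3 and deposited FPKM values of lncRNAs and mRNAs, 1 column for each liver. Every value column was matched to a liver by name (0 were left out), and no 2 columns were identical. FPKM values are not counts, so the depth behind a value is unknown, no counting interval is given, and no count model was used.

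The rule was applied in Python 3.11.15 (numpy 2.4.6, pandas 2.3.3, scipy 1.17.1, matplotlib 3.10.9). Members and lists were chosen with earlier results of these data known. limma 3.58.1 in R 4.3.3 was fitted on log2(FPKM + 1) to all 12 livers, with 1 mean per stage, 8 residual degrees of freedom and a variance trend, over 6254 lncRNAs with FPKM above 0.1 in at least 3 livers. Adjusted p-values were obtained by Benjamini and Hochberg's method within a comparison. P-values rest on the spread between hens within stages, pooled over all 12 livers and moderated over the lncRNAs tested. A comparison of 2 stages thus also draws on the livers of the other stages. The fit was tested on simulated data. Fold changes on this scale understate changes of low transcripts.

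lncRNAs named were the 10 of highest level, the 3 with the smallest and largest stage range and within-stage SD, those next to the thresholds and, in each comparison, the called member with the largest rise and fall whose livers did not overlap. Others are said to be chosen after their values were seen, or are members of a counted group. Alternatives were other floors, limits, added values, filters, scalings, fits without the trend or of 2 stages only, a replicate block, and each liver left out.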

Additional observations from a re-analysis of the deposited data

How the results depend on the processing

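With 3 livers in a stage and no read counts, the spread of a single member is poorly known. A floor of FPKM above 0.5 or 2 gave 187 or 34 steady lncRNAs holding 14.4% or 8.50% of lncRNA FPKM, with a median stage range of 0.65 or 0.76 (median within-stage SD 0.23 at the lower floor). A limit of 0.5 or 1.5 gave 18 or 130, holding 1.67% or 27.1%, with median SDs of 0.22 or 0.27 and ranges of 0.33 or 0.88. Adding 0.1 before log2 gave 53, 8.71%, an SD of 0.33 and a range of 0.73. Scaling over lncRNAs gave 151 (60 of the 80 among them), 17.8%, 0.22 and 0.59, and scaling over mRNAs, chosen after seeing the data, gave 117 (74 of the 80), 18.1%, 0.23 and 0.66. Without the member of highest FPKM the share was 9.25%. The causes were not tested. Without each liver in turn, the number was 74 to 92, the share 8.66% to 13.6%, the SD 0.24 to 0.27 and the range 0.65 to 0.71.

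Counts of members called moved as follows, each with the share of all tested lncRNAs called under the same setting. Adding 0.1 gave 2 in JP versus PL (3.82%). Testing lncRNAs with FPKM above 1 in at least 3 livers, which leaves fewer lncRNAs to adjust over, gave 2 in JP versus PL (8.53%), 20 in JP versus BP (37.2%), 16 in SM versus PL (48.9%) and 19 in PL versus BP (38.1%), and no filter gave 4 in JP versus SM (2.55%), 0 in JP versus PL (0.177%), 1 in JP versus BP (1.65%), 2 in SM versus PL (3.09%) and 2 in PL versus BP (1.61%). Moderation without the trend gave 2 in JP versus PL (1.46%) and 14 in JP versus BP (7.47%). Scaling over lncRNAs gave 7 in JP versus SM (4.02%), 2 in JP versus PL (3.69%), 7 in JP versus BP (3.56%), 10 in SM versus PL (5.92%) and 6 in PL versus BP (3.84%), with the majority turned in all but JP versus PL. The factors of this scaling came from a set that includes the members, so the turn is no test of their direction. Scaling over mRNAs gave 6 (6.91%), 0 (1.84%), 6 (6.24%), 0 (7.33%) and 4 (5.30%), with the majority turned in JP versus BP. Fits of the 6 livers of 2 stages gave 0 in JP versus PL (0.048%), 4 in JP versus BP (4.94%), 2 in SM versus PL (8.46%) and 0 in PL versus BP (3.36%). Without each liver in turn, the count was 1 to 12 in JP versus SM, 0 to 1 in JP versus PL, 0 to 10 in JP versus BP, 2 to 15 in SM versus PL, 0 to 1 in SM versus BP and 1 to 11 in PL versus BP. In SM versus BP all other settings gave 0.

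Livers of the same replicate number did not deviate together. Over 18 pairs of same-numbered livers the correlation of deviations from stage means was -0.06 to 0.09, and 0 pairs were over 0.1. With the number as a replicate block, 8 members were called in JP versus SM (9.31% of lncRNAs tested), 0 in JP versus PL (0.672%), 4 in JP versus BP (6.27%), 6 in SM versus PL (686 of 6254), 0 in SM versus BP (1.23%) and 4 in PL versus BP (6.22%).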
